A study of Mus musculus with 21 samples.

Results

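Transcripts of 34 vessel and stroma genes were followed in mouse prostate tumours with and without IRE1α. They were taken by gene name, and each matched 1 of the 45706 genes in the deposited table. Of these, 14 are endothelial genes, expressed in the cells that line blood vessels, and 20 are fibroblast, pericyte and matrix genes, called stroma genes here. The tumours grew in FVB mice from Myc-CaP, a line of prostate cancer cells that carries a Myc transgene. KO cells carried a CRISPR knockout of Ern1, the gene of the endoplasmic reticulum stress sensor IRE1α, and WT cells did not. The 13 tumour libraries comprised 3 tumours each of the KO lines KO1, KO2 and KO3 and 4 tumours of the single WT line. The 8 cell libraries, from cells grown in culture, comprised 2 of each KO line and 2 of the WT line. The labels do not say whether a KO line is 1 clone, nor how the tumours were placed in the mice, and they give no age of the animals. The names given to WT tumours 3 and 4 hold the same number.

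A solid tumour takes its blood supply from host vessels. Endothelial cells line them, pericytes wrap them, and fibroblasts lay down collagens and other matrix around them. Endothelial growth is driven by VEGF-A through the receptors Kdr and Flt1, and vessel maturation by angiopoietins through Tek. Tumour cells can also make matrix proteins themselves, above all fibronectin. A bulk library cannot separate fewer cells of a type from less RNA per cell, which holds for every difference below.

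Total counts ran from 15994285 to 27497796 in tumours and from 18105538 to 25068254 in cells. Levels are given in CPM, the counts of a gene relative to all counts of its library on a common scale, after TMM scaling over all 21 libraries. Ern1 itself ranged over 60.3 to 92.0 CPM in KO tumours, against 64.6 to 84.0 CPM in WT tumours, and over 171 to 196 CPM in KO cells, against 118 to 133 CPM in WT cells. A CRISPR edit need not lower the transcript, so these levels do not check the labels. A pair of WT tumours stood apart from the other 2. WT tumour 1 held 5902 CPM of 15 skeletal muscle genes in sum, against 9.88 to 1380 CPM in the other 12 tumours, and the highest sums of adipocyte and erythroid genes, at 1004 and 1298 CPM. In WT tumour 4, 24.0% of the counts fell on the gene Yam1, against 6.16% to 8.47% in the other tumours. Results that rest on these libraries are given with and without them.

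Levels in tumours were first set against cells, since a gene that the cancer cells do not express in culture is measured in tumours against an empty background. All 14 endothelial genes were higher in tumours than in cells (adjusted p at most 4.15e-09, edgeR). Of all 15173 genes tested, 78.8% passed, 46% higher and 32.8% lower. Cdh5, the VE-cadherin of endothelial junctions, had no count in any of the 8 cell libraries and 20.2, 32.4 and 48.5 CPM as the lowest, median and highest of the 13 tumours. Counting 3 reads over the whole cell group as the floor of a 0, Cdh5 was at least 1911-fold higher in tumours. Kdr, Tek, Emcn, Cldn5 and Robo4 also had no count in cells, with bounds of at least 663-fold, 283-fold, 429-fold, 201-fold and 322-fold. Eng, the endothelial co-receptor endoglin, was the exception in size. It had 7.19, 12.3 and 24.8 CPM as the lowest, median and highest tumour, against 2.10, 2.5 and 4.24 CPM in cells, and the groups did not overlap. Its log2 fold change was 2.21 ± 0.17 (SE), and the cells held 474 of its counts.

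Stroma genes divided by whether the cells expressed them. Of the 20, 17 were higher in tumours, Col5a1 and Fn1 were lower, and Pdgfra did not pass (edgeR). Col3a1, a fibrillar collagen chain, had 97.3, 381 and 1174 CPM as the lowest, median and highest tumour and no count in any cell library, a difference of at least 29847-fold. Col5a2, Lum, Fap, Thy1 and Loxl1 also had no count in cells, and Col1a1, Col1a2, Col6a2 and Dcn had 1 to 4 counts over all 8. Fn1, fibronectin, averaged 1244 ± 202 CPM in tumours (SD, n = 13) and 2855 ± 505 CPM in cells (SD, n = 8). No tumour reached the lowest cell library, and the log2 fold change was -1.18 ± 0.08 (SE, adjusted p = 1.59e-10, edgeR). Col5a1, the alpha 1 chain of collagen V, averaged 104 ± 33.8 CPM in tumours and 203 ± 25.5 CPM in cells (SD, n = 13 and 8). Its log2 fold change was -1.0 ± 0.10 (SE, adjusted p = 8.47e-08, edgeR), and the highest tumour, at 166 CPM, stood above the lowest cell library, at 151 CPM. Col6a3, a chain of collagen VI, averaged 79.2 ± 26.6 CPM in tumours and 6.72 ± 1.39 CPM in cells, without overlap. Pdgfra, a receptor on fibroblasts, averaged 20.4 ± 11.1 CPM in tumours and 16.9 ± 2.39 CPM in cells (SD, n = 13 and 8, log2 fold change 0.24, adjusted p = 0.342, edgeR).

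**Figure D1:**
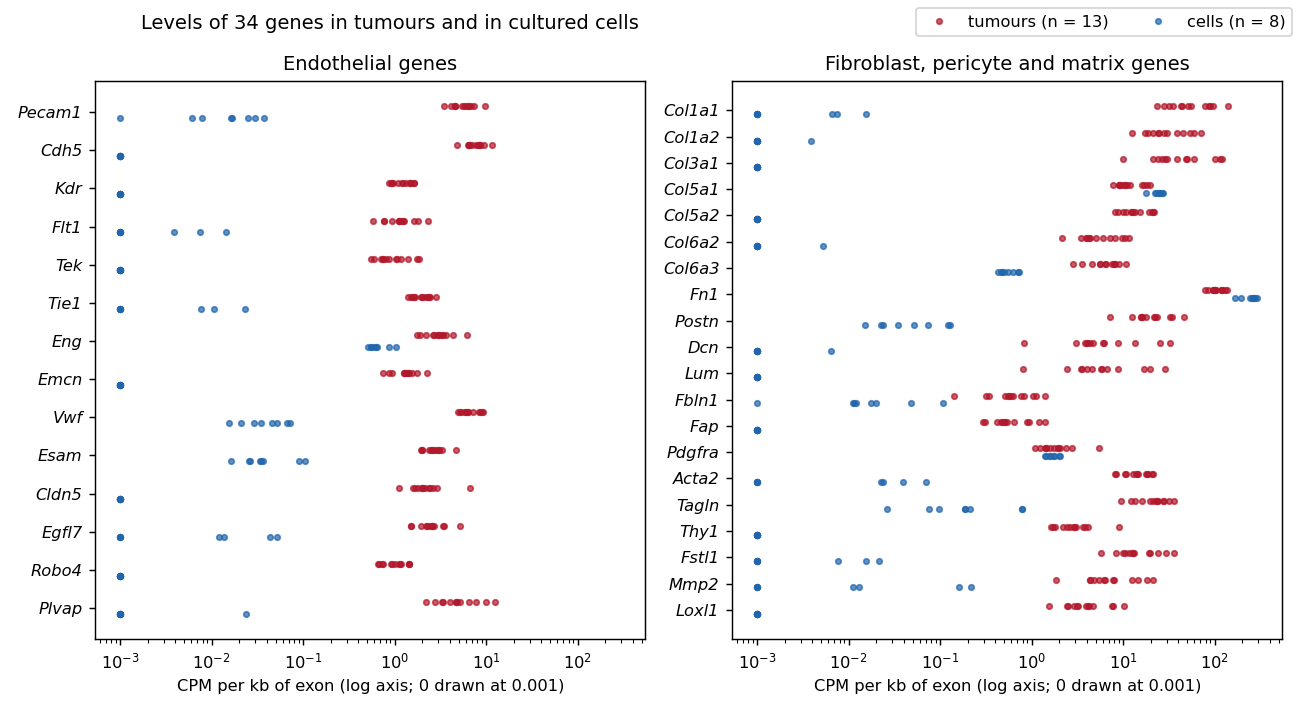
Levels of the 34 genes in 13 tumours (red) and 8 cell libraries (blue), in CPM per kilobase of exon on a log axis, with levels of 0 drawn at 0.001. Each point is 1 library. Cell libraries lie far under tumours for most genes, overlap them for Col5a1 and Pdgfra and lie above them for Fn1.

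Promoter sequence was available for 19 of the 34 genes, and 4 are shown, 1 gene with and 1 without counts in the cells from each group. The sequences are the 250 bases before the transcription start on the gene's own strand, from RefSeq, build GRCm38.p6, and capitals mark CpG dinucleotides. Among 32851 mouse promoters of the same length the median number of CpG was 6, and 92.1% held at least 1.
Col5a1: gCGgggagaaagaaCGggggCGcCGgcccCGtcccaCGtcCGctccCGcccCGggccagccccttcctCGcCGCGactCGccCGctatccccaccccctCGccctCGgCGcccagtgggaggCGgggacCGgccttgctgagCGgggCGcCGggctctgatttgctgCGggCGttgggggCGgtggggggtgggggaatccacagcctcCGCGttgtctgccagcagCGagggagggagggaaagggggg
Col3a1: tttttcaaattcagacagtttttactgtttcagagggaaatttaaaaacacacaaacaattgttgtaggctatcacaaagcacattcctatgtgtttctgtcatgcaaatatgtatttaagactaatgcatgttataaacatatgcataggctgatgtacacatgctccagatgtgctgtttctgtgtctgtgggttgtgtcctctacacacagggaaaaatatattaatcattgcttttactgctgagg
Eng: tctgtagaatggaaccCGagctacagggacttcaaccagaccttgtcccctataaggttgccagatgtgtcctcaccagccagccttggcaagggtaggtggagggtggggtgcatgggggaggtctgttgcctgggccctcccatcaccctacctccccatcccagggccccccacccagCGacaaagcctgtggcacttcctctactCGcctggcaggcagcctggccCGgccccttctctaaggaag
Emcn: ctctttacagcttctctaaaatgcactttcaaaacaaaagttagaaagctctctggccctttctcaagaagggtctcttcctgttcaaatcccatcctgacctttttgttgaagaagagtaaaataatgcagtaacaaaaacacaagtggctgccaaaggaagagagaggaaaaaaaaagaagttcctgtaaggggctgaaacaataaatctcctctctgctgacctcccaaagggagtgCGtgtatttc
The Col5a1 window, on chromosome 2 (chr2:27886175-27886424, plus strand), held 28 CpG, and 7.61% of windows held as many or more. The Col3a1 window, on chromosome 1 (chr1:45311288-45311537, plus strand), held 0. The Eng window (chr2:32646345-32646594, plus strand) held 4, and the Emcn window (chr3:137340828-137341077, plus strand) held 1. Kdr, with no count in the cells, held 16 in its window. Methylation was not measured.

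Levels were also taken per kilobase of exon, counted over all annotated exons of a gene. By this measure Cdh5 was the highest endothelial gene in tumours, at 7.74 ± 1.72 CPM per kb (SD, n = 13). Vwf, the von Willebrand factor of endothelial granules, followed at 6.82 ± 1.53 CPM per kb, Pecam1, a junction adhesion molecule, at 5.82 ± 1.66 CPM per kb and Plvap, the diaphragm protein of fenestrated endothelium, at 5.55 ± 2.99 CPM per kb. These neighbours lay within 1 SD of each other. The length over all exons can exceed that of a transcript, so the order between genes depends on it. In CPM Vwf, with 16.1 kb of exon, averaged 110, while Cdh5, with 4.20 kb, averaged 32.5. The VEGF receptors Kdr and Flt1 were at 1.25 ± 0.274 and 1.22 ± 0.470 CPM per kb. Tek and Tie1, the paired receptors of the angiopoietin system, were at 1.02 ± 0.421 and 2.0 ± 0.436 CPM per kb.

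Among stroma genes Fn1 was the highest per kb in tumours, at 106 ± 17.2 CPM per kb (SD, n = 13). Col1a1 followed at 61.8 ± 34.3, Col3a1 at 51.8 ± 36.9 and Col1a2 at 34.2 ± 18.0 CPM per kb. In CPM the order of these collagens differed, with averages of 508 for Col3a1, 424 for Col1a2 and 406 for Col1a1. Fap, a protease of activated fibroblasts, and Fbln1, a matrix glycoprotein, were the lowest, at 0.659 ± 0.344 and 0.678 ± 0.350 CPM per kb. Partner chains of collagens I and V kept narrow ratios. The 2 chains of collagen I stood at a Col1a1 to Col1a2 ratio of 1.80 ± 0.179 per kb across 13 tumours, from 1.46 to 2.02. The size of that ratio rests on exon lengths of 6.56 kb for Col1a1 and 12.4 kb for Col1a2, as their mean CPM were close. It is not a measure of how the chains combine. Col5a1 to Col5a2 was 0.858 ± 0.0801, from 0.716 to 1.02, while the cells had Col5a1 at 23.9 ± 3.0 CPM per kb and no count of Col5a2. Col6a3 to Col6a2 was more variable. It averaged 0.947 ± 0.220 in KO tumours (SD, n = 9), from 0.768 to 1.42, and 1.79 ± 0.559 in WT tumours (SD, n = 4), from 1.47 to 2.63, and the groups did not overlap. That ratio was picked out after its values were seen, and was not tested.

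The comparison of KO with WT tumours asked whether vessel or stroma genes differed between tumours of the KO lines and of the WT line. WT is 1 line, so loss of IRE1α cannot be told apart from other differences between the lines. The tests take single tumours as units and see only how these tumours vary. No endothelial and no stroma gene passed, 0 of 34, where 3.65% of all 14200 genes tested did (518, edgeR, adjusted p under 0.05), 1.28% higher and 2.37% lower. Without adjustment, 2 of 14 endothelial genes and 0 of 20 stroma genes had a p under 0.05, against 19.5% of all genes. By DESeq2 1 of the 34, Vwf, passed. The KO and WT libraries overlapped for each of the 34 genes, whereas they did not for 3.8% of all genes. Endothelial genes had a median log2 fold change of -0.22, with 11 of 14 below 0, where all genes had a median of 0.00 and 49.7% below 0. Without WT tumour 1 that median was 0.07, and without WT tumours 1 and 4 it was -0.05. Stroma genes had a median of 0.17, with 13 of 20 above 0. Without WT tumour 1 it was 0.60, without WT tumour 4 it was -0.05, and without line KO1 it was -0.30.

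Vwf, on chromosome 6 (125546774 to 125686679 in GRCm38), came nearest to the threshold among endothelial genes. Its lowest, median and highest levels were 78.4, 94.6 and 133 CPM in KO tumours (n = 9), against 101, 142 and 150 CPM in WT tumours (n = 4). All 9 KO tumours lay below the WT median, and 5 below the lowest WT tumour. KO over WT, the log2 fold change came to -0.45 ± 0.13 (SE, adjusted p = 0.0708, edgeR). By DESeq2 it was -0.46, with an adjusted p of 0.0214. Vwf passed under only 6 of the 26 alternatives and failed under all the others. Those 6 included DESeq2, length-scaled counts and a fit giving each line its own group. The rest of the 6 left out WT tumour 4, KO1 tumour 3 or all KO1 tumours. Vwf did not pass without WT tumour 1 (-0.44, adjusted p = 0.118, edgeR). Nor did it pass without WT tumours 1 and 4 (-0.57, adjusted p = 0.132, edgeR). In cells the level of Vwf was 0.598 ± 0.332 CPM in KO (SD, n = 6) and 0.906 ± 0.243 CPM in WT (SD, n = 2).

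Flt1, a VEGF receptor that also binds and holds the ligand, had 7.81, 14.9 and 24.1 CPM as the lowest, median and highest KO tumour, against 15.2, 18.6 and 31.5 CPM in WT tumours. Of the 9 KO tumours 5 lay below the lowest WT tumour, and the log2 fold change was -0.54 ± 0.25 (SE, adjusted p = 0.25, edgeR). Kdr, the main signalling receptor of VEGF-A, averaged 11.5 ± 2.33 CPM in KO tumours (SD, n = 9) and 10.8 ± 3.08 CPM in WT tumours (SD, n = 4), a difference within 1 SD. The angiopoietin receptor Tek averaged 4.88 ± 1.73 CPM in KO tumours and 4.68 ± 2.78 CPM in WT tumours, and its partner Tie1 10.1 ± 2.26 and 9.22 ± 2.01 CPM in KO and in WT tumours (SD, n = 9 and 4).

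The junction genes differed by less than their spread. Pecam1 averaged 35.0 ± 7.83 CPM in KO tumours and 38.9 ± 15.8 CPM in WT tumours, and Cdh5 31.2 ± 6.23 CPM in KO tumours and 35.6 ± 9.45 CPM in WT tumours (SD, n = 9 and 4). Esam, an adhesion molecule of endothelial junctions, averaged 7.63 ± 1.37 CPM in KO tumours and 8.51 ± 3.44 CPM in WT tumours. Cldn5, the claudin of tight vessels, had 1.57, 2.83 and 4.11 CPM as the lowest, median and highest KO tumour. In the WT tumours it had 9.51, 3.40, 2.92 and 2.27 CPM in replicates 1 to 4. WT tumour 1 alone stood above all KO tumours, the log2 fold change was -0.61 ± 0.32 (SE, adjusted p = 0.299, edgeR), and without that tumour it was -0.02. Plvap behaved likewise, with 4.42, 9.42 and 19.9 CPM as the lowest, median and highest KO tumour, against 25.0, 15.3, 9.30 and 5.56 CPM in WT tumours 1 to 4. Its log2 fold change was -0.50 ± 0.35 (SE, adjusted p = 0.459, edgeR) and -0.10 without WT tumour 1.

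Eng averaged 12 ± 3.22 CPM in KO tumours and 14.5 ± 7.04 CPM in WT tumours. Emcn, a sialomucin of capillaries and veins, averaged 7.20 ± 1.51 CPM in KO tumours and 7.55 ± 3.50 CPM in WT tumours. Egfl7, a secreted endothelial factor, averaged 8.93 ± 2.29 CPM in KO tumours and 10.5 ± 5.63 CPM in WT tumours. Robo4, a guidance receptor of endothelium, averaged 5.16 ± 1.63 CPM in KO tumours and 6.21 ± 1.07 CPM in WT tumours (SD, n = 9 and 4 for each gene). For these 4 genes the ranges of KO and WT tumours overlapped and the means lay within 1 SD of each other.

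**Figure D2:**
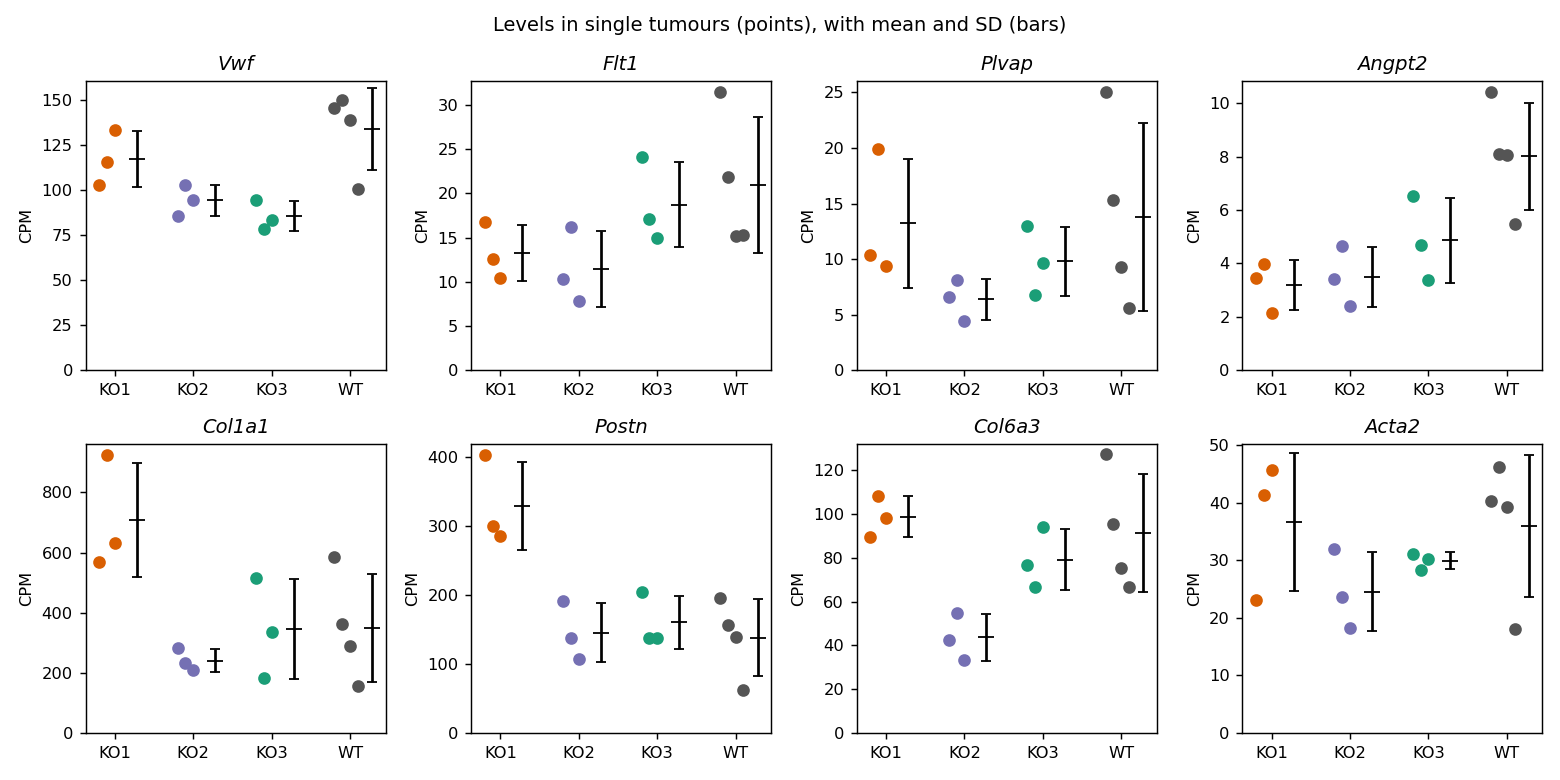
Levels of 8 genes in CPM in each tumour (points) of the KO lines KO1, KO2 and KO3 and of WT, with mean and SD (bars). Vwf, Flt1 and Angpt2 were lower in most KO tumours than in most WT tumours, while Col1a1 and Postn were highest in KO1 and Col6a3 was lowest in KO2.

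Genes that act on vessels were looked at beside the endothelial ones. Of 24 angiogenic ligands, receptors and tip cell genes, 2 fell and none rose in KO tumours, where 2.37% of all genes fell. Angpt2, a ligand of Tek that loosens vessels and is made by endothelium, had 3.43, 3.96 and 2.14 CPM in KO1, 3.40, 4.66 and 2.40 CPM in KO2 and 6.53, 4.68 and 3.37 CPM in KO3 tumours. WT tumours 1 to 4 had 10.4, 8.08, 8.05 and 5.48 CPM. KO3 tumour 1 alone among KO tumours stood above the lowest WT tumour. The log2 fold change of Angpt2 was -1.06 ± 0.25 (SE, adjusted p = 0.0314, edgeR), and it was negative under each of the 26 alternatives, from -1.29 to -0.93. It did not pass under 8 of them, with adjusted p from 0.00275 to 0.704 over all 26 (0.00275 is by DESeq2, the others by edgeR). Among those 8 were the fits without WT tumour 1, 2 or 3 in turn (adjusted p = 0.0733, 0.0925 and 0.0704, edgeR). Adm, adrenomedullin, a peptide that widens vessels, had 0.837, 1.58 and 6.61 CPM as the lowest, median and highest KO tumour, against 23.0, 6.60, 4.06 and 4.54 CPM in WT tumours 1 to 4. Its log2 fold change was -2.09 ± 0.50 (SE, adjusted p = 0.0346, edgeR), and -1.24 without WT tumour 1 (adjusted p = 0.163, edgeR). Adm did not pass under 14 of the 26 alternatives. Vegfa itself, named after its values were seen, did not pass, though it did under 1 of the 26 alternatives. It had 22.2, 17.4 and 17.3 CPM in KO1, 27.3, 50.1 and 25.6 CPM in KO2 and 64.4, 27.0 and 29.9 CPM in KO3 tumours, against 76.9, 54.6, 46.5 and 35.6 CPM in WT tumours 1 to 4. All KO1 tumours lay below all WT tumours, and the log2 fold change over the lines was -0.77 ± 0.31 (SE, adjusted p = 0.19, edgeR). In cells Vegfa averaged 55.6 ± 6.23 CPM in KO (SD, n = 6) and 42.4 ± 2.13 CPM in WT (SD, n = 2).

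The 4 further vessel and stroma lists held no gene past the threshold by edgeR in KO against WT tumours. Of 25 further endothelial genes, 0 passed and 2 had an unadjusted p under 0.05, and those with the smallest p were Podxl, an apical sialomucin, with a log2 fold change of 0.26 (adjusted p = 0.129) and Clec14a, an endothelial lectin, with 0.40 (adjusted p = 0.184). Podxl was higher in cells than in tumours (log2 fold change -1.16 of tumours against cells) and does not stand for vessels here. Of 7 lymphatic genes 3 were tested, 0 passed and 1, Pdpn, had an unadjusted p under 0.05. Pdpn, also a gene of fibroblasts, had a log2 fold change of -1.33 (adjusted p = 0.234), with 40.1 CPM in WT tumour 1 and 1.88 to 8.56 CPM in the other 12 tumours. Flt4, the VEGF-C receptor, had a log2 fold change of -0.29 (adjusted p = 0.435). Of 18 pericyte and smooth muscle genes tested, 0 passed, 4 had an unadjusted p under 0.05 and 16 had a log2 fold change below 0. Abcc9, a channel subunit of pericytes, had -0.56 (adjusted p = 0.101), and Actg2, a smooth muscle actin, had -0.92 (adjusted p = 0.107). Of 49 further fibroblast and matrix genes tested, 0 passed and 7 had an unadjusted p under 0.05. S100a4, a calcium-binding protein of fibroblasts and motile cells, had a log2 fold change of -0.78 (adjusted p = 0.0608). Timp2, a metalloproteinase inhibitor, had 0.79 (adjusted p = 0.073), with 68.2 to 140 CPM in KO tumours, against 43.9 to 76.1 CPM in WT tumours. Both are also made by the cells, where S100a4 averaged 34.2 ± 15.6 CPM in KO (SD, n = 6) and 159 ± 15.2 CPM in WT (SD, n = 2). Timp2 averaged 206 ± 61.7 CPM in KO and 287 ± 10.9 CPM in WT cells (SD, n = 6 and 2), the reverse of the order in tumours. Each cell library, from 141 to 294 CPM, stood above every tumour in Timp2, so it does not stand for fibroblasts here. Of the genes named from these 4 lists, Abcc9 passed under 2 of the 26 alternatives, S100a4 under 5 and Timp2 under 3.

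Stroma genes spread more widely between tumours than endothelial genes. The coefficient of variation over 13 tumours had a median of 28.9% for endothelial genes, from 21.8% to 56.8%, and a median of 52.5% for stroma genes, from 16.2% for Fn1 to 105% for Dcn. For each tumour the level of each gene was taken as a percent of its mean over the 13 tumours, and the median of the genes gave a relative level. For endothelial genes it was 93.7, 115 and 84.6% in KO1 tumours, 75.9, 96.2 and 66.9% in KO2 tumours, 120, 100.2 and 102% in KO3 tumours and 170, 105, 85.7 and 70.4% in WT tumours. For stroma genes it was 141, 159 and 144% in KO1 tumours, 70.2, 65.8 and 53.4% in KO2 tumours, 97.5, 71.7 and 90.5% in KO3 tumours and 153, 82.6, 76.3 and 37.6% in WT tumours. The WT tumours alone spanned nearly the whole range of both. WT tumour 1 was the highest of 13 for 11 of 14 endothelial genes, and WT tumour 4 the lowest for 18 of 20 stroma genes. KO1 tumours 1 and 2 were the highest for 12 of 20 stroma genes, 4 and 8 of them, and for 1 endothelial gene.

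**Figure D3:**
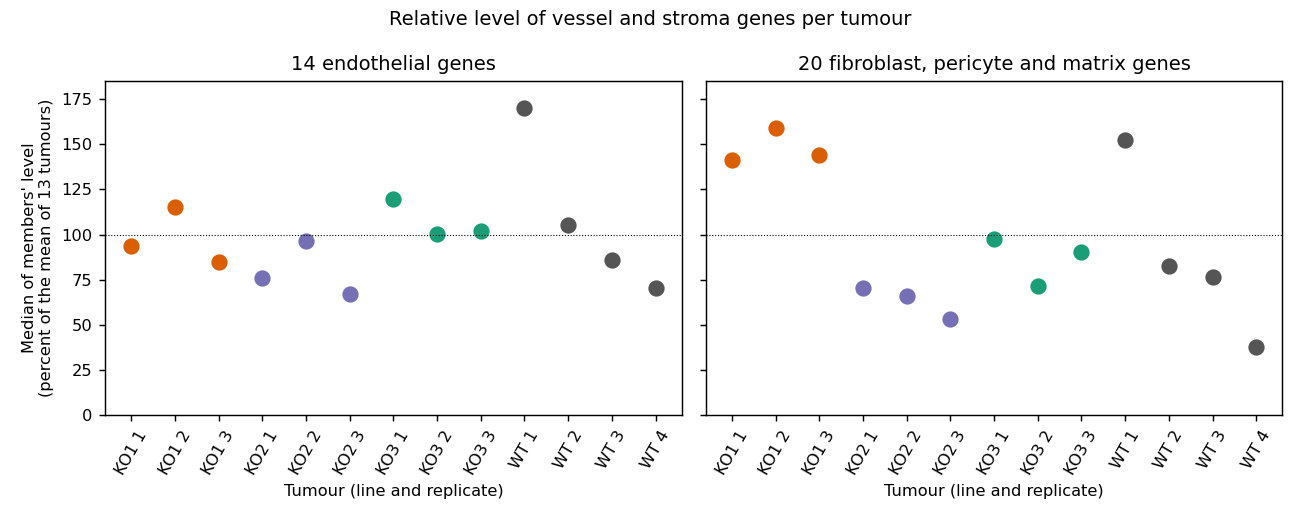
Relative level of 14 endothelial genes (left) and 20 stroma genes (right) in each tumour, as the median over the genes of the level in percent of the gene's mean over 13 tumours. Stroma genes stand at 141% to 159% in the 3 KO1 tumours and at 53.4% to 70.2% in the 3 KO2 tumours, and WT tumours run from 153% to 37.6%.

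**Figure D4:**
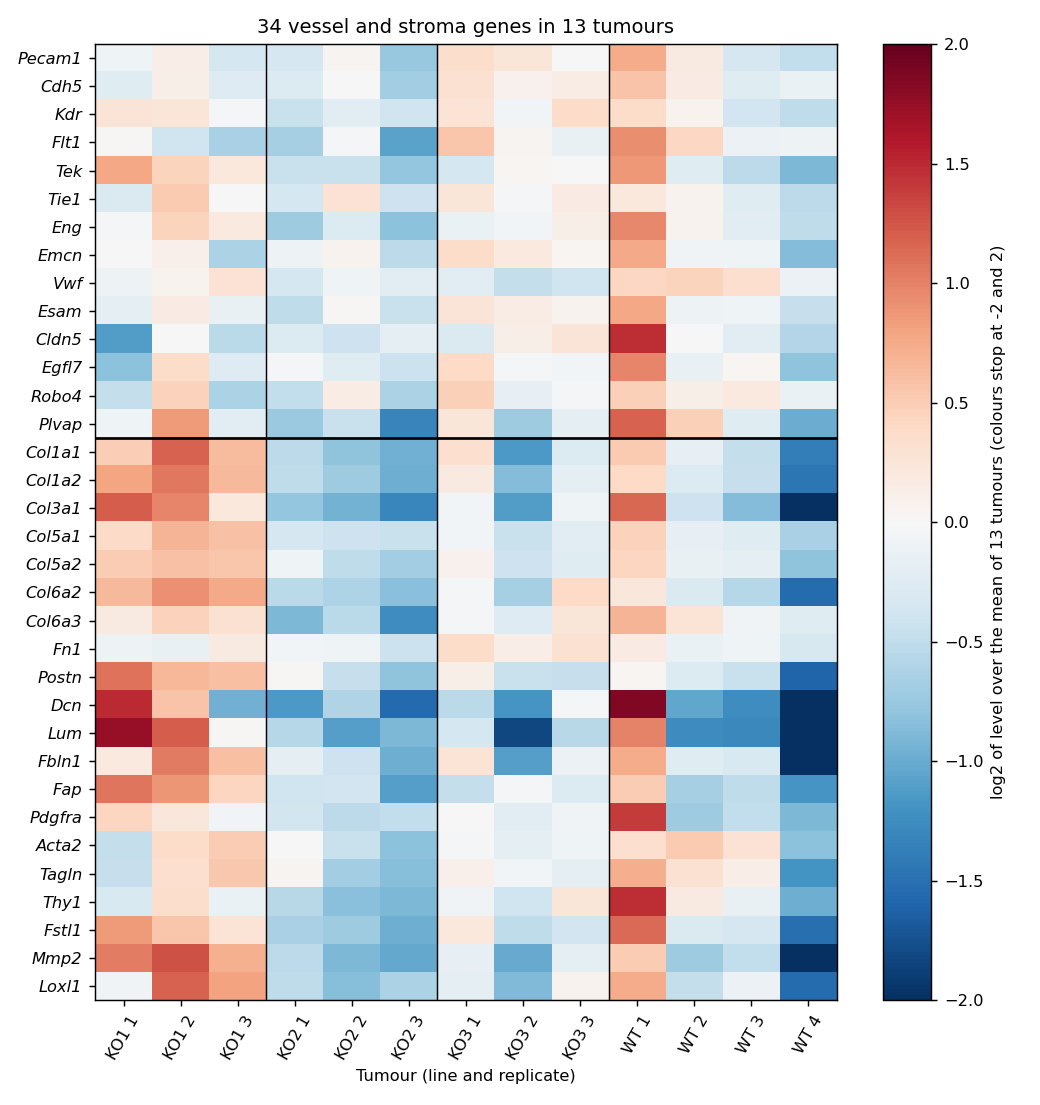
Map of the 34 genes (rows) in 13 tumours (columns), coloured by the log2 of the level over the gene's mean in the tumours. The KO1 columns and WT tumour 1 are red and the WT tumour 4 column blue over most stroma genes, whereas endothelial genes are red mainly in WT tumour 1.

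The stroma genes were then compared among the KO lines, to see whether the lines, which share the target, gave tumours alike in stroma. Most stroma genes stood higher in KO1 than in KO2 tumours. All 3 KO1 tumours stood above all 3 KO2 tumours for 16 of 20 stroma genes and for 4 of 14 endothelial genes, against 18% of all 14483 genes tested. The reverse order held for 0 of 34, against 9.84% of all genes. KO1 stood above KO3 without overlap for 11 of 20 stroma genes and 2 of 14 endothelial genes, against 14.3% of all genes, and below it for 0 of 34, against 11.6%. KO2 stood below KO3 without overlap for 5 of 20 stroma genes and 5 of 14 endothelial genes, against 12.4% of all genes, and above it for 0 of 34, against 8.67%. By edgeR's F test over the 3 lines 2 of 20 stroma genes and 0 of 14 endothelial genes differed, where 2.95% of all genes did. Without adjustment 14 of 20 stroma genes and 3 of 14 endothelial genes had a p under 0.05, against 18.5% of all genes.

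The 2 genes past the threshold were Col5a1 and Col6a3. Col5a1 (chromosome 2, 27886425 to 28039514 in GRCm38) had 136, 166 and 155 CPM in KO1 tumours, 82.6, 78.1 and 76.6 CPM in KO2 tumours and 99.8, 76.1 and 88.3 CPM in KO3 tumours (adjusted p = 0.0409, edgeR). WT tumours 1 to 4 had 143, 92.9, 88.0 and 66.5 CPM. KO1 tumours stood above all tumours of the other KO lines, and WT tumour 1 lay among them. In cells Col5a1 was lowest in KO1, with 151 and 188 CPM, against 210 and 217 CPM in KO2 and 229 and 227 CPM in KO3. The cells held more Col5a1 than the tumours on average, so it does not stand for fibroblasts alone here. Which cells gave the difference between lines was not tested. Col6a3 (chromosome 1, 90765923 to 90843971) had 89.6, 108 and 98.4 CPM in KO1, 42.6, 54.8 and 33.5 CPM in KO2 and 76.9, 66.5 and 94.1 CPM in KO3 tumours (adjusted p = 0.0345, edgeR). WT tumours 1 to 4 had 127, 95.7, 75.2 and 66.8 CPM. KO2 tumours lay below every other tumour.

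The count of 2 stroma genes changed with the libraries in the fit. WT tumours enter this fit through the shared estimate of spread and not through the contrast. Without WT tumour 1 the count was 11, without WT tumour 4 it was 7, without both it was 14, and by DESeq2 it was 9. It was 0 without each of 7 of the 9 KO tumours in turn, 1 without KO2 tumour 2, WT tumour 2 or WT tumour 3, and 3 without KO3 tumour 1.

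The other collagen chains were likewise highest in KO1 among the KO lines. Col1a1 had 569, 923 and 632 CPM in KO1 tumours, 282, 231 and 209 CPM in KO2 tumours and 515, 182 and 336 CPM in KO3 tumours, against 585, 363, 290 and 155 CPM in WT tumours 1 to 4 (adjusted p = 0.114 over KO lines, edgeR). Its level in KO1 tumours was above all tumours of KO2 and KO3, and WT tumour 1 lay within the KO1 range. For KO against WT its log2 fold change was 0.30 ± 0.41 (SE, adjusted p = 0.721, edgeR). Col1a2 had 665 to 878 CPM in KO1 tumours, 216 to 298 CPM in KO2, 232 to 483 CPM in KO3 and 157 to 560 CPM in WT tumours. Col3a1 had 590 to 1174 CPM in KO1 tumours, 206 to 299 CPM in KO2, 234 to 487 CPM in KO3 and 97.3 to 1126 CPM in WT tumours. Col5a2 had 197 to 206 CPM in KO1 tumours, 84.8 to 130 CPM in KO2, 104 to 146 CPM in KO3 and 78.7 to 186 CPM in WT tumours. Col6a2, the partner chain of Col6a3, had 81.2 to 97.6 CPM in KO1 tumours, 28.9 to 35.7 CPM in KO2, 32.7 to 68.3 CPM in KO3 and 17.7 to 60.5 CPM in WT tumours. For these 4 genes the KO1 tumours stood above every KO2 and KO3 tumour, and for Col1a2, Col5a2 and Col6a2 above every WT tumour as well. The adjusted p over KO lines was 0.0604 for Col1a2, 0.219 for Col3a1, 0.089 for Col5a2 and 0.0748 for Col6a2 by edgeR. For KO against WT Col6a2 had a log2 fold change of 0.55 ± 0.36 (SE, adjusted p = 0.414, edgeR).

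Genes that organise or cut the matrix followed. Postn, periostin, a secreted protein of activated fibroblasts, had 402, 299 and 285 CPM in KO1 tumours, 192, 137 and 108 CPM in KO2 tumours and 204, 138 and 138 CPM in KO3 tumours. WT tumours 1 to 4 had 195, 156, 139 and 62.2 CPM, all below the 3 KO1 tumours. The KO against WT log2 fold change was 0.61 ± 0.34 (SE, adjusted p = 0.344, edgeR), and the adjusted p over KO lines 0.105. Mmp2, a gelatinase, had 60.8, 72.1 and 48.8 CPM in KO1 tumours, 14.7 to 20.8 CPM in KO2, 14.8 to 26.7 CPM in KO3 and 6.19 to 42.4 CPM in WT tumours, so that each KO1 tumour stood above the other 10. Its log2 fold change for KO against WT was 0.59 ± 0.49 (SE, adjusted p = 0.534, edgeR), and it was -0.16 without line KO1. Loxl1, a cross-linker of elastic fibres, had 14 to 33.4 CPM in KO1 tumours, 8.15 to 10.3 CPM in KO2, 7.98 to 15.5 CPM in KO3 and 5.09 to 24.6 CPM in WT tumours. Fstl1, a secreted glycoprotein, had 96.6 to 144 CPM in KO1 tumours, 40.7 to 51.2 CPM in KO2, 56.3 to 93.2 CPM in KO3 and 28.2 to 175 CPM in WT tumours. Fap had 5.02 to 7.86 CPM in KO1 tumours, 1.74 to 2.86 CPM in KO2, 2.68 to 3.63 CPM in KO3 and 1.65 to 5.28 CPM in WT tumours. Fbln1 had 3.38 to 6.12 CPM in KO1 tumours, 1.5 to 2.62 CPM in KO2, 1.39 to 3.60 CPM in KO3 and 0.627 to 4.93 CPM in WT tumours.

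The small proteoglycans varied most. Dcn, decorin, had 148, 78.2 and 27.1 CPM in KO1 tumours, 23.7, 34.7 and 17.8 CPM in KO2 and 36.0, 23.2 and 51.1 CPM in KO3 tumours. WT tumours 1 to 4 had 190, 25.5, 22.2 and 4.86 CPM. WT tumour 1 was the highest and WT tumour 4 the lowest of the 13, and the KO against WT log2 fold change was -0.29 ± 0.71 (SE, adjusted p = 0.856, edgeR) and 1.40 without WT tumour 1. Lum, lumican, had 69.5, 48.2 and 21.2 CPM in KO1 tumours and 5.92 to 16.4 CPM in KO2 and KO3 tumours, against 41.7, 8.74, 8.53 and 1.96 CPM in WT tumours 1 to 4. Both genes had their lowest level in WT tumour 4.

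Contractile and surface markers completed the stroma genes. Acta2, the smooth muscle actin of pericytes and activated fibroblasts, had 23.1, 41.3 and 45.7 CPM in KO1 tumours, 31.9, 23.5 and 18.2 CPM in KO2 and 31.1, 28.4 and 30.3 CPM in KO3 tumours, against 40.3, 46.1, 39.2 and 18.1 CPM in WT tumours 1 to 4. KO1 and KO2 overlapped, and KO1 tumour 1, which had the most Lum and Postn, had the least Acta2 of its line. Tagln, a calponin-like protein of contractile cells, had 31.6, 55.3 and 63.5 CPM in KO1, 45.4, 26.8 and 24.0 CPM in KO2 and 46.6, 42.1 and 38.6 CPM in KO3 tumours, against 71.9, 53.9, 47.9 and 19.0 CPM in WT tumours 1 to 4. The adjusted p over KO lines was 0.57 for Acta2 and 0.616 for Tagln by edgeR. Thy1, a surface glycoprotein of fibroblasts and also of T cells, had 5.17, 7.86 and 12.3 CPM as the lowest, median and highest KO tumour, against 27.0, 11.0, 8.71 and 4.94 CPM in WT tumours 1 to 4. Its log2 fold change for KO against WT was -0.65 ± 0.32 (SE, adjusted p = 0.284, edgeR), and it was -0.06 without WT tumour 1. Pdgfra had 14.2, 19.4 and 27.5 CPM as the lowest, median and highest KO tumour, against 53.9, 12.5, 14.5 and 10.9 CPM in WT tumours 1 to 4. The log2 fold change was -0.25 ± 0.33 (SE, adjusted p = 0.716, edgeR) and 0.55 without WT tumour 1. Fn1, which the cells express, was the least variable, at 1154, 1128 and 1412 CPM in KO1 tumours, 1203, 1174 and 921 CPM in KO2 and 1601, 1367 and 1529 CPM in KO3 tumours, against 1392, 1134, 1167 and 992 CPM in WT tumours 1 to 4.

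**Figure D5:**
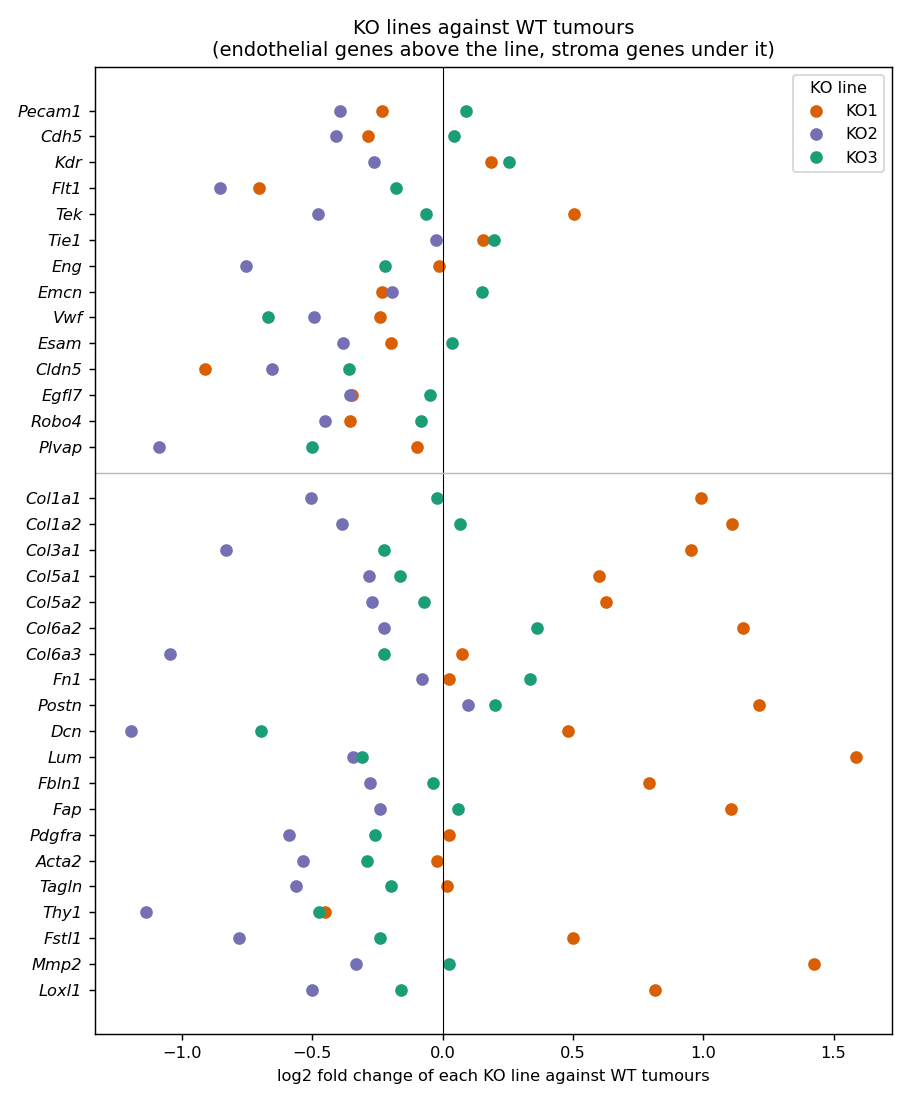
The log2 fold change of each KO line against the 4 WT tumours for the 14 endothelial genes (top) and 20 stroma genes (bottom), from a fit with the lines as groups. KO1 (orange) is above 0 for 18 of 20 stroma genes and KO2 (purple) for 1, while endothelial genes mix the lines.

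Set against WT, which all 3 lines share as control, the median log2 fold change of the 20 stroma genes was 0.71 in KO1, -0.44 in KO2 and -0.16 in KO3, with 18, 1 and 6 genes above 0. For the 14 endothelial genes the medians were -0.23, -0.43 and -0.05, with 3, 0 and 6 genes above 0. All genes had medians of -0.02 in each line. Further fibroblast and matrix genes, 49 tested, had medians of 0.62, -0.49 and -0.06 in KO1, KO2 and KO3. Of those, 4 differed over the KO lines, where 2.95% of all genes did. They were Col15a1 (adjusted p = 0.00236), Timp2 (adjusted p = 0.0195), Col8a1 (adjusted p = 0.021) and Islr (adjusted p = 0.0488, edgeR). Among them Timp2, higher in each cell library than in any tumour, does not stand for fibroblasts. Col15a1, a collagen of basement membrane zones, had 79.5 to 123 CPM in KO1, 42.0 to 45.7 CPM in KO2 and 54.6 to 65.0 CPM in KO3 tumours, against 59.2 to 77.2 CPM in WT tumours. Each KO1 tumour stood above and each KO2 tumour below all other tumours, and its adjusted p stayed at or below 0.0155 under each of the 21 alternatives. Of 18 pericyte genes 1 differed, Pdgfrb, the pericyte receptor of PDGF-B (adjusted p = 0.0491, edgeR), with 20.3 to 28.3 CPM in KO1, 12.9 to 14.6 CPM in KO2 and 16.1 to 21.6 CPM in KO3 tumours, against 16.9 to 24.1 CPM in WT tumours. Under the 21 alternatives Timp2 lost its call in 7, Col8a1 in 4, Islr in 13 and Pdgfrb in 16, where the adjusted p of Islr and Pdgfrb reached 0.171 (edgeR). These 5 genes are named because they passed here.

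Markers of other tissues varied between the lines too. Leukocyte and macrophage genes had median log2 fold changes against WT of 0.70, -0.07 and 0.22 in KO1, KO2 and KO3, the same order as stroma genes. Skeletal muscle and adipocyte genes had other orders. By the F test over KO lines 2 of 14 leukocyte, 0 of 15 skeletal muscle and 0 of 9 adipocyte genes passed, where 2.95% of all genes did (edgeR). The summed level of 15 leukocyte and macrophage genes was 1018 to 1379 CPM in KO1, 583 to 813 CPM in KO2 and 710 to 1035 CPM in KO3 tumours, against 1286, 637, 663 and 401 CPM in WT tumours 1 to 4. The highest sums were in KO1 tumours 1 and 2 and WT tumour 1 and the lowest in WT tumour 4, while KO3 tumour 3 stood above KO1 tumour 3. The summed level of 15 skeletal muscle genes was 543 to 1380 CPM in KO1, 38.4 to 1076 CPM in KO2 and 9.88 to 22.5 CPM in KO3 tumours, against 5902, 14.4, 92.9 and 13.6 CPM in WT tumours 1 to 4. KO2 tumour 2, with 1076 CPM of muscle genes, had a relative stroma level of 65.8%, between its line mates. WT tumour 1, with 5902 CPM, had a relative stroma level within the range of the KO1 tumours. Whether muscle and stroma levels were related was not tested. The 9 adipocyte genes summed to 51.0 to 382 CPM in KO1, 88.2 to 122 CPM in KO2 and 105 to 705 CPM in KO3 tumours, against 162 to 1004 CPM in WT tumours. Their median log2 fold change against WT was -0.54 in KO1, -6.03 in KO2 and 0.14 in KO3. Fabp4, which enters the sum, was at -1.40 in KO2, and the cells expressed it at 28.8 ± 8.06 CPM (SD, n = 8). All 3 KO1 tumours stood above all 3 KO2 tumours for 10 of 14 leukocyte, 6 of 9 adipocyte and 0 of 15 skeletal muscle genes. Among all genes tested the share was 18%. For skeletal muscle genes KO1 stood above KO3 in 15 of 15, against 14.3% of all genes. KO2 stood above KO3 in 14 of 15, against 8.67%. In KO against WT tumours 1 of 5 erythroid genes was lower, where 2.37% of all genes were, and all 5 were below 0. It was Hba-a2, an alpha globin gene with a near-identical copy (log2 fold change -1.97, adjusted p = 0.0334, edgeR). The cells also expressed Hba-a2, at 36.3 ± 23.6 CPM in KO (SD, n = 6) and 89.9 ± 24.2 CPM in WT (SD, n = 2). Hba-a1, another of the 5, was at 46.2 ± 25.6 and 94.6 ± 4.82 CPM there, so neither stands for blood alone. Hbb-bs, Hbb-bt and Alas2 had no count in cells. The erythroid genes summed to 75.5 to 263 CPM in KO tumours, against 1298, 407, 290 and 106 CPM in WT tumours 1 to 4. Of 5 nerve and Schwann cell genes tested 1 was higher, where 1.28% of all genes were, and the other 4 were below 0. The higher one was Ncmap, a myelin-associated protein gene (log2 fold change 1.48, adjusted p = 0.0282, edgeR). The cells also expressed Ncmap, at 0.954 to 2.04 CPM in KO (n = 6) and 0.735 to 0.844 CPM in WT (n = 2). It therefore does not stand for nerve alone. The part of other tissue in the stroma and vessel results was not tested.

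In cultured cells few of the 34 genes could be compared between KO and WT, where 14.8% of all 12254 genes tested passed by edgeR, 4.99% higher and 9.76% lower in KO. Of the 14 endothelial genes 2 were tested, Eng and Vwf, and neither passed, with unadjusted p of 0.277 and 0.288 (edgeR), and neither passed by DESeq2. Eng averaged 2.88 ± 0.816 CPM in KO cells (SD, n = 6) and 2.27 ± 0.239 CPM in WT cells (SD, n = 2), a log2 fold change of 0.34. Of the 20 stroma genes 7 were tested and Postn alone passed, lower in KO cells. It had 0.452 and 0.633 CPM in KO1, 0.209 and 0.195 CPM in KO2 and 0.130 and 0.305 CPM in KO3 cells, against 1.12 and 1.05 CPM in WT cells, without overlap. The log2 fold change was -1.72 ± 0.48 (SE, adjusted p = 0.0412, edgeR), which did not pass under 10 of 19 alternatives, among them leaving out either WT library. In tumours Postn averaged 212 ± 98.2 CPM in KO (SD, n = 9) and 138 ± 55.8 CPM in WT (SD, n = 4). Pdgfra averaged 17.9 ± 1.92 CPM in KO cells and 14.1 ± 0.242 CPM in WT cells without overlap (SD, n = 6 and 2, log2 fold change 0.34, adjusted p = 0.083, edgeR). Fn1 averaged 2816 ± 585 CPM in KO cells and 2972 ± 190 CPM in WT cells, Col5a1 203 ± 29.8 CPM in KO cells and 201 ± 8.87 CPM in WT cells, and Col6a3 6.71 ± 1.56 CPM in KO cells and 6.75 ± 1.13 CPM in WT cells (SD, n = 6 and 2). These 3 genes differed by less than the spread between libraries. The labels name no separate cultures behind the cell libraries, and WT is 1 line, so the tests in cells see only how these libraries vary.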

How the data were processed

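Per the submitters' processing notes, reads were handled with Trim Galore 0.6.7, STAR and Salmon 1.5.2 on GRCm38. The authors deposited estimated counts per gene, not normalized, and a length-scaled table of estimated counts, used here as an alternative. For strand setting and annotation release no source used here gives a value, so overlapping genes may share reads. Estimated counts were rounded to whole numbers. The 34 genes, the lists beside them and the tests were chosen with earlier results of these data known. Differences were tested over all genes with edgeR 4.0.16 in R 4.3.3 (limma 3.58.1): filterByExpr, TMM, quasi-likelihood F test, Benjamini-Hochberg adjustment, threshold 0.05. DESeq2 1.42.0 was an alternative. KO against WT tumours used 13 tumours with the KO lines as 1 group, the KO lines were compared in a fit with WT tumours, and tumours were set against cells over all 21 libraries. No covariate was used. The edgeR fit of each comparison was run on 1 set of simulated counts, and the other steps were not. Lengths and coordinates are from GENCODE M21, where 45143 of the 45706 gene identifiers were found. Other genes were named where they passed in KO against WT tumours or, where none of a list passed, as the 2 with the smallest p. Replicate numbers of the labels were not used to pair the samples. Of 18 pairs of tumours 3 had a correlation above 0.1. With 2 cell libraries per group the correlation is the same for both replicate numbers. The 2 of 12 cell pairs above 0.1 are therefore 1 pair of groups, KO1 and KO3, and cannot settle whether cells were paired. The chi-square per degree of freedom between replicates was at least 8.39, so none was counted as a repeat of another. Intervals of counting error were not used, and a count of 0 was bounded by 3 counts over the 8 cell libraries.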

Additional observations from a re-analysis of the deposited data

Results flagged for a closer look

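Single libraries stood far from the rest of their group for 4 genes. In WT tumour 1 Cldn5 had 9.51 CPM, with the next WT tumour at 3.40 CPM, Dcn had 190 CPM, with the next at 25.5 CPM, Lum had 41.7 CPM, with the next at 8.74 CPM, and Pdgfra had 53.9 CPM, with the next at 14.5 CPM. KO1 tumour 1 had 148 CPM of Dcn, with the next KO tumour at 78.2 CPM. Chance marks about 1 in 20 groups in this way, and 75 groups were looked at. WT tumour 1 also held 5902 CPM of skeletal muscle genes and 1004 CPM of adipocyte genes in sum, and the part of these tissues in the high levels was not tested.

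Col5a1 and Col6a3 differed over the 3 KO lines in tumours, with adjusted p of 0.0409 and 0.0345 by edgeR. The adjusted p ran from 0.000512 to 0.170 for Col5a1 and from 0.000224 to 0.132 for Col6a3 over 21 alternatives, 1 of them by DESeq2 and the others by edgeR, and did not pass in 12 and in 9 of them.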

How the results depend on the processing

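Of the results across the alternatives, 1243 values kept direction and side of the threshold, 93 lost and 20 gained the call, 10 reversed and 77 counts or medians moved. Leaving out WT tumours 1 and 4 together and scaling by total counts without TMM were chosen after seeing the data, and scaling by total counts moved the median of all genes to 0.17 in KO against WT tumours, 0.11 in tumours against cells and 0.21 in cells. For KO against WT tumours 518 genes passed, 1078 by DESeq2, 332 without a filter, 98 with the replicate block, 871 without TMM, 1118 with lines as groups, 297 and 123 without line KO1 or KO2, 0 with libraries summed per line, 246 with WT tumours 3 and 4 summed, 89 without WT tumours 1 and 4, and 154 to 594 without 1 tumour. Of endothelial genes 1 passed by DESeq2, in the length-scaled table, with lines as groups and without line KO1, and 0 to 1 without 1 tumour, where their median ran from -0.33 to 0.066. Col1a1 and Mmp2 reversed without line KO1, to -0.26 and -0.16, and Dcn without line KO2, to 0.016. Without WT tumours 1 and 4 Dcn, Pdgfra and Pdpn were at 0.99, 0.48 and 0.22, and without 1 tumour they ran from -0.71 to 1.40, -0.48 to 0.55 and -1.69 to 0.47. Over KO lines 427 genes passed, 1263 by DESeq2, 1262 without WT tumours 1 and 4, and 128 to 1095 without 1 tumour. Of stroma genes 9 passed by DESeq2, 5 without a filter, 1 in the length-scaled table, 8 with the replicate block, 0 without TMM, 6 with WT tumours 3 and 4 summed, 14 without WT tumours 1 and 4, and 0 to 11 without 1 tumour. Of endothelial genes 2 passed without WT tumours 1 and 4, and 0 to 1 without 1 tumour. In tumours against cells 7159 genes passed among WT libraries alone, and Pdgfra was at -0.54 in the length-scaled table. In KO against WT cells 1808 genes passed, 3348 without TMM, 4780 with lines as groups, 1162, 1137 and 4315 without line KO1, KO2 or KO3, 38 with libraries summed, and 378 to 2221 without 1 library. Of stroma genes 2 passed there without TMM, with lines as groups and without line KO3, 0 in the length-scaled table, with the replicate block, without line KO2 and with libraries summed, and 0 to 1 without 1 library. Of endothelial genes 1 passed without line KO3. The cause of these changes was not tested. Depth limits genes of few counts in cells most.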
